A study of Mus musculus with 8 samples.

Results

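The data described here are the transcript levels of 9 chemokine genes, listed by name, among the 18605 genes of the expression table: *Ccl2*, *Ccl7*, *Ccl5*, *Cxcl1*, *Cxcl5*, *Cxcl12*, *Cxcl15*, *Cxcl16* and *Cx3cl1*. All 9 were found in the table by symbol. They were chosen by name after the counts and fold changes of these same libraries had been seen, so the tests below describe these libraries and are no independent test of the choice. RNA was sequenced from C3H10T1/2, a mesenchymal cell line from embryos of C3H mice, carrying a non-target control or an shRNA against *Nap1l2*, a nucleosome assembly protein gene. The groups NC and KD-Nap1l2 were not induced, and NC-7d and KD-Nap1l2-7d were induced toward osteogenesis for 7 days, with 2 libraries in each of the 4 groups. The labels give no second shRNA and no clone, and the study's methods list dexamethasone, a glucocorticoid, with ascorbic acid and β-glycerol phosphate in its osteogenic medium. They do not say whether the replicates are separate cultures, so the p-values measure only the spread between these samples, which may be technical.

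Chemokines are small secreted proteins that set up gradients and draw leukocytes along them through receptors coupled to G proteins. CC chemokines such as Ccl2 mainly attract monocytes and T cells, and CXC chemokines with an ELR motif, such as Cxcl1 and Cxcl5, attract neutrophils. Mesenchymal cells of the bone marrow are a known source of Cxcl12, which retains haematopoietic stem cells there, and several other chemokines are induced in such cells through NF-κB and belong to the secretory phenotype of senescent cells.

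The libraries held 17420284 to 19427359 estimated counts, and a count of 0 in a library still allows up to 3 counts; limits and intervals of this kind cover counting error only. The mesenchymal marker *Col1a1*, a collagen chain gene, lay between 38303 and 118670 normalized counts, while the leukocyte marker *Ptprc* lay at 0 to 3.9, the epithelial marker *Epcam* at 0 to 1 and the endothelial marker *Pecam1* at 2.9 to 24.6. Other markers of these types were counted. The 14 mesenchymal ones summed to 217428 to 515908 in a library, with *Thy1* (18.2 to 190.4) and *Lepr* (9.3 to 34.5) the lowest of them. By edgeR 6 of the 14 were lower in KD-Nap1l2-7d against KD-Nap1l2, beside 14.2% of all genes tested that passed. In NC-7d against NC 1 was higher and 2 were lower, beside 8.21%. The 9 leukocyte markers in the table summed to 323 to 604 in a library, led by *Cd14* (132 to 406.5) and *Cd68* (54.8 to 204.7), the 7 endothelial ones to 68.5 to 364, led by *Vwf* (16.1 to 330.8) and *Tek* (10.0 to 99.8), and the 6 epithelial ones to 34.5 to 166, led by *Cdh1* (28.9 to 146.8). By edgeR *Cdh1* fell on induction with both constructs (log2 -1.33 and -1.41, adjusted p = 0.0446 and 0.0232) and *Tek* in KD-Nap1l2-7d against KD-Nap1l2 (log2 -2.81, adjusted p = 0.00825), and the part of these markers in the chemokine results was not tested. The targeted gene *Nap1l2* had 3 counts in each NC library, 2 and 7 in KD-Nap1l2, 15 and 5 in NC-7d, and 7 and 13 in KD-Nap1l2-7d. Counts this low cannot show whether *Nap1l2* was lowered in the libraries labelled KD-Nap1l2. The paper reports its knockdown in this cell line by western blot and quantitative PCR. The names of the groups below are those of the labels. The NC-7d libraries stood apart from each other in interferon-stimulated genes, and the summed values are given below beside *Ccl2* and *Ccl7*. With 2 libraries a group, groups without overlap are common. In KD-Nap1l2 against NC 5 of the 8 tested chemokine genes did not overlap, beside 43.2% of all genes tested, and in KD-Nap1l2-7d against NC-7d 5 of 8, beside 42.1%. In NC-7d against NC it was 6 of 8, beside 57.8%, and in KD-Nap1l2-7d against KD-Nap1l2 6 of 8, beside 61.4%. In bulk RNA, fewer cells that express a gene and less RNA of it per cell cannot be told apart.

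Promoters were read from RefSeq on GRCm38.p6 and were found for 4 of the 9 genes. Those of 3 genes are shown because the genes differ in level and response: *Cxcl1* rose on induction, *Cxcl12* had the highest level and *Cxcl15* was nearly uncounted. Each run holds the 250 bases before the start of the gene on the plus strand, 5′ to 3′, with motif matches in capitals. The *Cxcl1* run is chr5:90890995-90891244, with 3 matches in capitals, 2 of them overlapping, of an NF-κB motif (GGG and TTCC with 3 bases between them, on either strand). The *Cxcl12* run is chr6:117168285-117168534, with 5 matches of the GC box GGGCGG on either strand in capitals. The *Cxcl15* run is chr5:90794284-90794533, with 1 match of the TATA box TATAAA in capitals.
Cxcl1: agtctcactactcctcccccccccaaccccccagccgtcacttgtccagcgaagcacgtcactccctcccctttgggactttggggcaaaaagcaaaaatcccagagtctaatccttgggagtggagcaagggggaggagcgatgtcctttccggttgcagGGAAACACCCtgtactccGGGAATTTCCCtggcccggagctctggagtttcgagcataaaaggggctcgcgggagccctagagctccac
Cxcl12: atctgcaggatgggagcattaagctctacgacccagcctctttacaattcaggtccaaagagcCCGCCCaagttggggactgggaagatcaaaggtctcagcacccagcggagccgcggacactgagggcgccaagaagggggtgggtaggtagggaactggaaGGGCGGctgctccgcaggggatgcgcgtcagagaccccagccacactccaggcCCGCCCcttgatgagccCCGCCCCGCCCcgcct
Cxcl15: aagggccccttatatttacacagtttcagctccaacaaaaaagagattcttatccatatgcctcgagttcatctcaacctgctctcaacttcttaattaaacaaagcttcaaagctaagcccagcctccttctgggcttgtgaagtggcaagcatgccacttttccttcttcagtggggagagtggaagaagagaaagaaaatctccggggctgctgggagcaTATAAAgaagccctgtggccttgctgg
Of 32817 RefSeq promoter windows of this length, 4.65% held the NF-κB letters, 32.7% the GC box letters and 12.4% the TATAAA letters on either strand. The AP-1 letters TGANTCA, held by 6.75%, and the interferon response letters (GAAA repeated after 2 bases), held by 2.97%, were not in the 3 windows shown. A match describes the letters of the window only.

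The study's quantitative PCR primers listed for mouse Il8 are shown because the primer names do not give a mouse gene symbol. In its transcriptome results the paper writes the gene as *Cxcl15 (Il8)*.
Forward: aggaagtgatagcagtcccaa
Reverse: cagaagcttcattgccggtg
Each matched 1 transcript of GENCODE vM21 (GRCm38), *Cxcl15*-201. The forward primer spans the junction of exons 2 and 3 on chromosome 5, starting at 90795319 and ending at 90797953, and the reverse primer lies in exon 4 of 4 from 90801285 to 90801304. Both lie in coding sequence, 149 bases apart from end to end in the transcript.

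*Ccl2* and *Ccl7* encode monocyte attractants that share the receptor Ccr2, and they lie side by side on chromosome 11 (82035577 to 82037452 and 82045712 to 82047525, GRCm38.p6, both on the plus strand). *Ccl2* had 3923 and 3549 normalized counts in NC, 1798 and 1284 in KD-Nap1l2, 3240.2 and 3342 in NC-7d, and 3641 and 3879 in KD-Nap1l2-7d. A normalized count is a rounded count scaled by TMM to the mean library. Both KD-Nap1l2 libraries lay below all 6 others, and the remaining groups lay close together. *Ccl7* had 2223 and 2273.5 normalized counts in NC, 1229 and 1278 in KD-Nap1l2, 2659 and 2399.9 in NC-7d, and 3292 and 3179 in KD-Nap1l2-7d. Here too the KD-Nap1l2 libraries were the lowest, and the KD-Nap1l2-7d libraries were the highest of all 8.

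Without induction, *Ccl2* averaged 3736 ± 264 in NC and 1541 ± 363 in KD-Nap1l2 (SD, n = 2), a log2 fold change of -1.28 with an SE of 0.172, or 2.42-fold lower. *Ccl7* averaged 2248 ± 35.6 and 1254 ± 34.5 (SD, n = 2), a log2 fold change of -0.84 with an SE of 0.115, or 1.79-fold lower. The groups did not overlap in either gene, but neither passed the test, with an adjusted p of 0.0638 for each by edgeR's quasi-likelihood test over 13470 genes with Benjamini-Hochberg adjustment. This test called 11 of those genes in KD-Nap1l2 against NC, 0.0817% of them, and 0 of the 8 tested chemokine genes, while 2 of the 8, *Ccl2* and *Ccl7*, had an unadjusted p under 0.05, as had 13.7% of all genes tested. DESeq2's Wald test called both, with adjusted p-values of 1.44e-08 for *Ccl2* and 3.91e-06 for *Ccl7*, and limma on log2(FPKM + 1) called *Ccl7* at 0.0351. Over all alternatives the adjusted p ran from 1.44e-08 to 0.255 for *Ccl2* and from 3.91e-06 to 0.33 for *Ccl7*. Leaving out KD-Nap1l2 replicate 1 put both past the threshold, at 0.0116 and 0.0342. The log2 fold change stayed negative throughout, between -1.54 and -1.06 for *Ccl2* and between -0.87 and -0.81 for *Ccl7*.

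After induction both genes rose in the cells labelled KD-Nap1l2. In KD-Nap1l2-7d against KD-Nap1l2, *Ccl2* had a log2 fold change of 1.29 with an SE of 0.172 (2.44-fold, adjusted p = 0.00437 by edgeR) and *Ccl7* one of 1.37 with an SE of 0.117 (2.58-fold, adjusted p = 0.00082 by edgeR). In NC-7d against NC, *Ccl2* changed by -0.18 with an SE of 0.169 and *Ccl7* by 0.17 with an SE of 0.114 on the log2 scale, and neither passed (adjusted p = 0.552 and 0.404 by edgeR). The comparisons share no libraries, and their difference was tested as an interaction. It was 1.47 with an SE of 0.24 for *Ccl2* and 1.20 with an SE of 0.162 for *Ccl7*, with an adjusted p of 0.343 for each by edgeR. That test called 0 of 13470 genes, or 0%, with 948 at an unadjusted p under 0.05, or 7.04%, and limma also called 0, while DESeq2 called 100, among them *Ccl2* (3.82e-05), *Ccl7* (1.27e-05) and *Cxcl1* (0.0218). Over the alternatives the adjusted p of the difference reached up to 0.911 for *Ccl2* and 0.898 for *Ccl7*. At 7 days, KD-Nap1l2-7d lay above NC-7d without overlap in both genes, by 0.19 with an SE of 0.169 for *Ccl2* and by 0.35 with an SE of 0.114 for *Ccl7* on the log2 scale, and neither passed (adjusted p = 0.843 and 0.519 by edgeR).

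Interferon-stimulated genes were lower together with *Ccl2* and *Ccl7* without induction. Their summed level over 22 genes was 124920 and 179585 normalized counts in NC, against 56564 and 24960 in KD-Nap1l2. All 22 had a negative log2 fold change with an unadjusted p under 0.05 by edgeR, beside 13.7% of all genes tested with such a p. After adjustment 0 passed by edgeR (smallest 0.0775, *Irf1*) or limma and 5 by DESeq2. The list's median log2 fold change was -1.88, beside 0.01 over all genes tested. After induction the sum was 159457 and 40532 in the NC-7d libraries, in which *Ccl2* differed little (3240.2 and 3342), and 90908 and 120317 in KD-Nap1l2-7d. The part of these genes in the result for *Ccl2* and *Ccl7* was not tested.

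**Figure D1:**
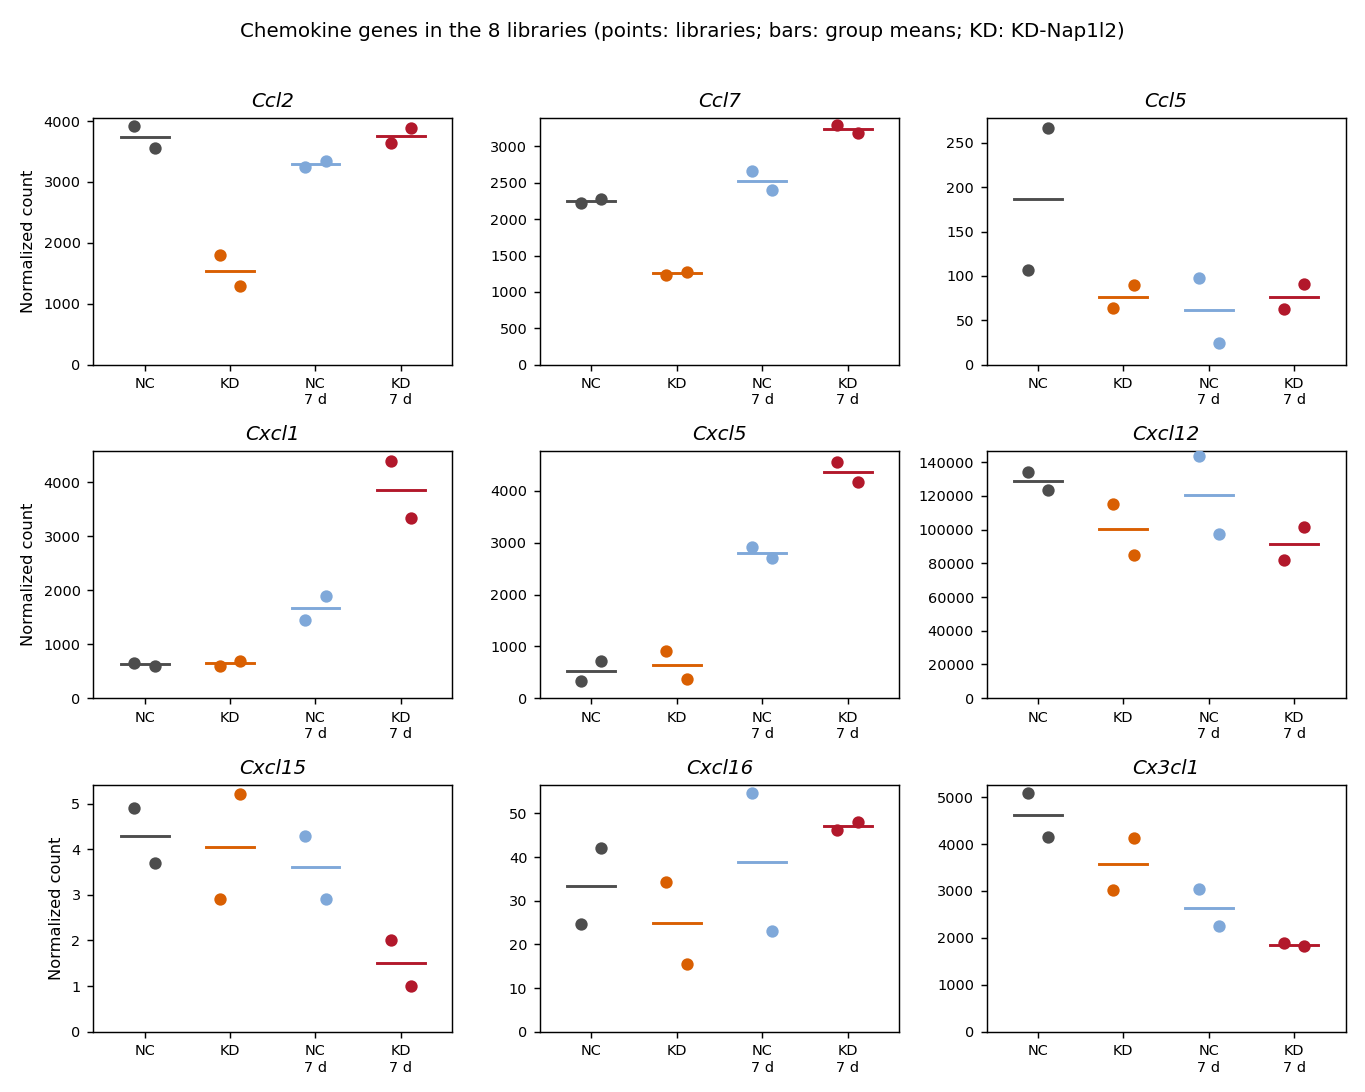
Normalized counts of the 9 chemokine genes on linear axes from 0, with a point per library and a bar at the mean of each group of 2. The KD-Nap1l2 libraries are the lowest for Ccl2 and Ccl7, all 4 libraries at 7 days are the highest for Cxcl1 and Cxcl5, and Cxcl15 stays between 1 and 5.2.

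*Ccl5* encodes an attractant of T cells and monocytes and lies apart from these genes on the minus strand of chromosome 11 (83525778 to 83530518). It had 106 and 266 normalized counts in NC, 63.6 and 89.5 in KD-Nap1l2, 97.4 and 24.9 in NC-7d, and 62.2 and 90.8 in KD-Nap1l2-7d. NC replicate 2 was the highest library and NC-7d replicate 2 the lowest, and the 2 libraries of NC and of NC-7d lay far apart. The log2 fold change was -1.29 with an SE of 0.621 in KD-Nap1l2 against NC and -1.62 with an SE of 0.632 in NC-7d against NC, both without overlap of the groups, and neither passed (adjusted p = 0.414 and 0.166 by edgeR). In KD-Nap1l2-7d against KD-Nap1l2 it was 0.00 with an SE of 0.635. *Cxcl10*, an interferon-induced ligand of Cxcr3, followed the interferon-stimulated genes in NC-7d, with 320.1 and 45.1 normalized counts, and *Ccl5* was likewise higher in NC-7d replicate 1. In NC and KD-Nap1l2-7d, *Ccl5*, *Cxcl10* and the summed interferon-stimulated genes were all higher in replicate 2. In KD-Nap1l2 *Ccl5* went the other way, with 63.6 and 89.5 beside 100.8 and 56.2 for *Cxcl10* and a sum of 56564 and 24960. The part of the interferon-stimulated genes in the level of *Ccl5* was not tested.

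*Cxcl1* and *Cxcl5* encode ligands of Cxcr2 that attract neutrophils. They lie on the plus strand of chromosome 5, *Cxcl5* from 90759298 to 90761625 and *Cxcl1* from 90891245 to 90893121. *Cxcl1* had 657 and 601 normalized counts in NC, 601 and 691 in KD-Nap1l2, 1445 and 1896.5 in NC-7d, and 4387 and 3332 in KD-Nap1l2-7d. All 4 induced libraries lay above all 4 uninduced ones, and KD-Nap1l2-7d lay above NC-7d. *Cxcl5* had 338 and 712 normalized counts in NC, 919.9 and 370.5 in KD-Nap1l2, 2921 and 2696 in NC-7d, and 4554 and 4179 in KD-Nap1l2-7d. Its uninduced groups overlapped and its induced groups did not. The estimated count of *Cxcl5* was fractional in 7 of the 8 libraries, as arises where the counting program shares reads between transcripts. The only transcript listed for *Cxcl5* held 100% of its count in every library. Any such sharing would be with transcripts of other genes, which were not looked up.

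In NC-7d against NC, *Cxcl1* rose 2.66-fold (log2 1.41, SE 0.189, adjusted p = 0.00621 by edgeR) and *Cxcl5* rose 5.34-fold (log2 2.42, SE 0.45, adjusted p = 0.019 by edgeR). They were 2 of the 8 tested chemokine genes, and 8.21% of all genes tested passed in this comparison, with 4.83% upward. Without NC replicate 1 the adjusted p was 0.0637 for *Cxcl1* and 0.142 for *Cxcl5*, which left 0 of the 8 called by edgeR, and 122 of all genes tested. Without NC-7d replicate 1 that of *Cxcl5* was 0.0519. The log2 fold change over the alternatives ran from 1.20 to 1.59 for *Cxcl1* and from 1.98 to 3.06 for *Cxcl5*.

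In KD-Nap1l2-7d against KD-Nap1l2, *Cxcl1* rose 5.98-fold (log2 2.58, SE 0.196, adjusted p = 0.00059 by edgeR) and *Cxcl5* rose 6.76-fold (log2 2.76, SE 0.455, adjusted p = 0.00944 by edgeR). Here 5 of the 8 chemokine genes passed, beside 14.2% of all genes tested; 4 were higher (*Ccl2*, *Ccl7*, *Cxcl1* and *Cxcl5*), beside 6.84% of all genes upward, and 1 was lower (*Cx3cl1*), beside 7.36% downward. *Cxcl1* stayed past the threshold under all alternatives, with adjusted p-values up to 0.00578, as did *Ccl2* up to 0.0435 and *Ccl7* up to 0.0133. *Cxcl5* missed it without KD-Nap1l2-7d replicate 1 (0.0625) and without replicate 2 (0.0528).

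At 7 days, *Cxcl1* averaged 1671 ± 319 normalized counts in NC-7d and 3860 ± 746 in KD-Nap1l2-7d (SD, n = 2), a log2 fold change of 1.21 with an SE of 0.186, or 2.31-fold. It did not pass edgeR's test (adjusted p = 0.443), which called 0 of 13470 genes, or 0%, in this comparison, with 1057 at an unadjusted p under 0.05. Among the 8 chemokine genes, 3 had an unadjusted p under 0.05 (*Cxcl1*, *Ccl7* and *Cx3cl1*), beside 7.85% of all genes tested. DESeq2 called 82 genes with *Cxcl1* as the only chemokine gene of the 9 (3.87e-05), limma called 0, and the adjusted p of *Cxcl1* over the alternatives ran from 3.87e-05 to 1. *Cxcl5* was higher by 0.64 on the log2 scale with an SE of 0.425 (adjusted p = 0.789 by edgeR). Without induction, *Cxcl1* differed by 0.04 with an SE of 0.188 and *Cxcl5* by 0.30 with an SE of 0.435 (adjusted p = 0.952 and 0.803 by edgeR). The difference of the induction contrasts was 1.17 with an SE of 0.264 for *Cxcl1* (adjusted p = 0.439 by edgeR) and 0.34 with an SE of 0.607 for *Cxcl5* (adjusted p = 0.928 by edgeR).

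**Figure D2:**
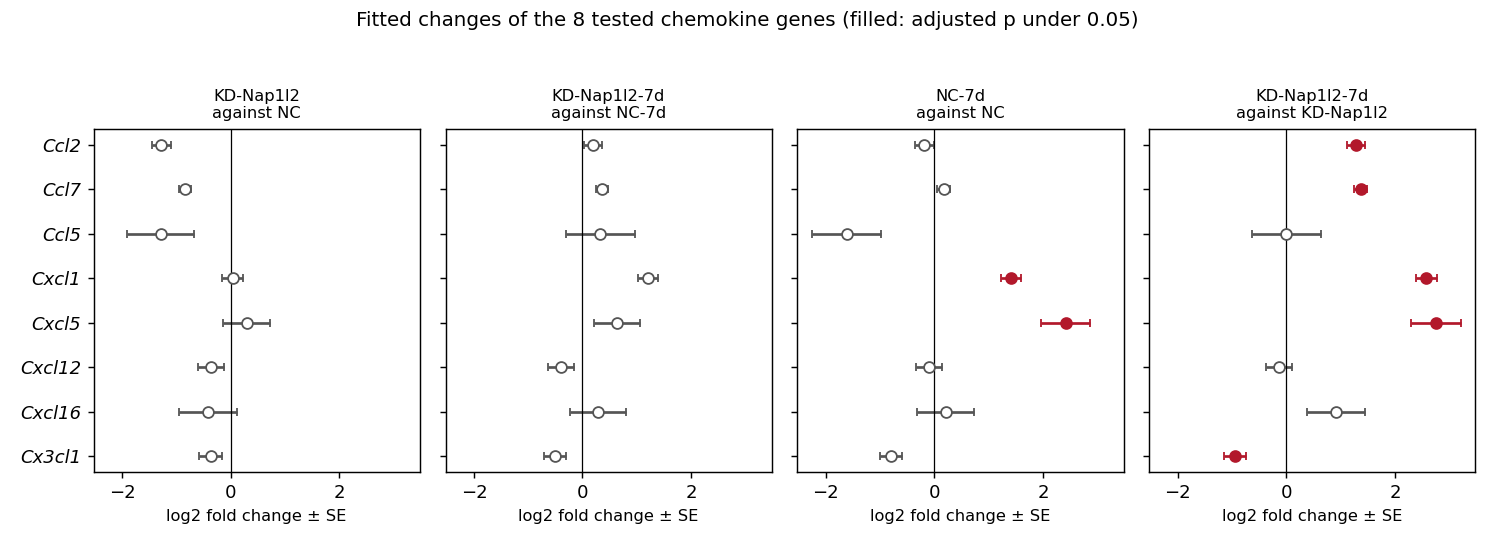
Log2 fold change with its SE for the 8 chemokine genes that passed the filter on low counts, in 4 comparisons, with filled points where the adjusted p is under 0.05. Filled points are Cxcl1 and Cxcl5 in NC-7d against NC, and Ccl2, Ccl7, Cxcl1, Cxcl5 and Cx3cl1 in KD-Nap1l2-7d against KD-Nap1l2.

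*Cxcl15* encodes a CXC chemokine known from the lung, and it was nearly uncounted. Its estimated counts were 4.97 and 3.62 in NC, 3.03 and 5.33 in KD-Nap1l2, 3.67 and 2.70 in NC-7d, and 2.02 and 1.03 in KD-Nap1l2-7d. None was a whole number, and the gene did not pass the filter on low counts. In a fit without that filter the adjusted p was 1 in KD-Nap1l2 against NC and 0.48 in KD-Nap1l2-7d against KD-Nap1l2 by edgeR. A difference was not detectable at this depth, while the paper lists *Cxcl15* among the genes significantly decreased in its transcriptome on NAP1L2 depletion. It lies between *Cxcl5* and *Cxcl1* on chromosome 5 (90794534 to 90803067, plus strand), and the primers printed above read its transcript.

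*Cxcl12* encodes the ligand of Cxcr4 and lies on the plus strand of chromosome 6 (117168535 to 117181368). Its level per length, as FPKM, was 3367 and 3074 in NC, 2973 and 2009.6 in KD-Nap1l2, 3426 and 2416 in NC-7d, and 2005 and 2440.1 in KD-Nap1l2-7d. Among all 18605 genes it ranked between 3 and 13 in FPKM in each library. It made up 64.6% to 87.2% of the summed FPKM of the 35 chemokine ligand genes in the table, with the lowest shares, 64.6% and 70.1%, in KD-Nap1l2-7d. No comparison passed for *Cxcl12* by edgeR, DESeq2 or limma. The log2 fold change was -0.36 in KD-Nap1l2 against NC and -0.40 in KD-Nap1l2-7d against NC-7d, each with an SE of 0.239 (adjusted p = 0.559 and 0.746 by edgeR). On induction it was -0.09 in NC and -0.13 in KD-Nap1l2, also with an SE of 0.239.

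The transcript table gave 3 forms of *Cxcl12*, named here by their coding lengths in GENCODE vM21: alpha with 267 coding bases in 3 exons, beta with 279 in 4 exons and gamma with 357 in 4 exons. They share their 5′ exons and differ in the 3′ end of the coding sequence. The alpha form held 70.4% and 66.5% of the estimated *Cxcl12* counts in NC, 65.5% and 65.3% in KD-Nap1l2, 63.8% and 62.3% in NC-7d, and 63.3% and 63.1% in KD-Nap1l2-7d. All 4 induced libraries lay below all 4 uninduced ones. The gamma form held 3.89% to 5.91% without induction and 6.12% to 7.34% after it, again without overlap, and the beta form 25.7% to 28.8% and 30% to 30.7%. The Wilson 95% intervals of these shares are at most 0.66 percentage points wide. The shares are estimates of the counting program for transcripts that share most of their exons. They are shares of counts, not per length, and the alpha, beta and gamma transcripts are 1878, 3132 and 5627 bases long. Per length, as FPKM, the 3 forms stood at 2733, 585 and 49.3 in NC replicate 1. Over the 4 induced and 4 uninduced libraries, both constructs together, the alpha share averaged 63.1% ± 0.643 and 66.9% ± 2.37 (SD), with p = 0.0286 in a two-sided exact permutation test. The beta and gamma shares gave the same p, which is 0.0286 adjusted over the 3 forms. It is the smallest p that a free exchange of the 8 libraries allows, made without regard to construct. Exchange within each construct, which allows fewer arrangements, was not tested. The 3 shares add up to the whole and are not independent, and the test was chosen after the shares were seen.

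**Figure D3:**
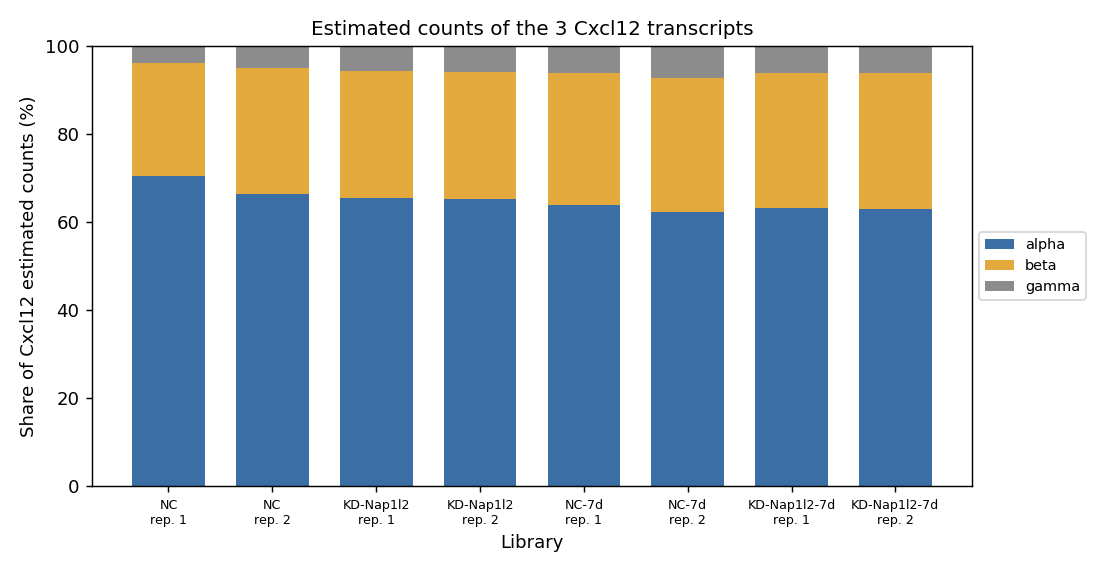
Stacked shares of the estimated Cxcl12 counts, in percent, of the alpha, beta and gamma transcripts in each of the 8 libraries. The alpha share lies between 65.3% and 70.4% without induction and between 62.3% and 63.8% after 7 days.

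*Cx3cl1* and *Cxcl16* encode the chemokines that are made as transmembrane proteins and shed by Adam10 and Adam17. *Cx3cl1*, the ligand of Cx3cr1, lies on the plus strand of chromosome 8 (94772180 to 94782427). It had 5097 and 4147 normalized counts in NC, 3031 and 4130.5 in KD-Nap1l2, 3034 and 2256 in NC-7d, and 1884 and 1831 in KD-Nap1l2-7d. It was lower after induction with either construct, without overlap of the groups, and lower in KD-Nap1l2-7d than in every other library. In KD-Nap1l2-7d against KD-Nap1l2 it fell 1.93-fold (log2 -0.95, SE 0.206, adjusted p = 0.0233 by edgeR). That call was lost without KD-Nap1l2 replicate 2 (0.0854) and without either KD-Nap1l2-7d library (0.142 and 0.143). In NC-7d against NC its log2 fold change was -0.81 with an SE of 0.205, just outside the threshold (adjusted p = 0.053 by edgeR), and DESeq2 (0.00347), limma (0.0334) and edgeR without the filter on low counts (0.0327) called it, within a range of up to 0.32 over the alternatives. The KD-Nap1l2 groups lay below the NC groups at both times, by -0.37 with an SE of 0.204 and -0.51 with an SE of 0.205 on the log2 scale, and neither passed (adjusted p = 0.479 and 0.596 by edgeR).

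*Cxcl16*, the ligand of Cxcr6, lies on the minus strand of chromosome 11 (70454389 to 70459984) and was low. It had 24.6 and 42.1 normalized counts in NC, 34.3 and 15.6 in KD-Nap1l2, 54.6 and 23.0 in NC-7d, and 46.1 and 48.0 in KD-Nap1l2-7d. KD-Nap1l2-7d lay above NC and KD-Nap1l2 without overlap, and the other pairs of groups overlapped. In KD-Nap1l2-7d against KD-Nap1l2 the log2 fold change was 0.91 with an SE of 0.533 (adjusted p = 0.282 by edgeR). Its 3 listed transcripts split few counts unevenly, and the one with the reference coding sequence held 14.9% of them in NC replicate 1 and 74.4% in NC replicate 2.

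Set side by side as FPKM, the order in NC was *Cxcl12*, *Ccl2* (261 ± 15.7), *Ccl7* (158 ± 4.14), *Cx3cl1* (79.9 ± 10.8), *Cxcl1* (36.8 ± 1.93), *Ccl5* (20.3 ± 12.5), *Cxcl5* (17.5 ± 8.97), *Cxcl16* (1 ± 0.141) and *Cxcl15* (0.105 ± 0.0212; SD, n = 2 each). *Ccl5* and *Cxcl5*, neighbours in this order, overlapped. In KD-Nap1l2, *Ccl2* (109 ± 32.4) and *Ccl7* (88.5 ± 3.17) overlapped as well. After induction *Cxcl1* and *Cxcl5* moved above *Cx3cl1* in both groups. In KD-Nap1l2-7d, *Cxcl1* (226 ± 45.8) overlapped with *Ccl7* (228 ± 7.77), and *Cxcl5* followed at 145 ± 10.2 and *Cx3cl1* at 32.1 ± 0.955. Together the 9 genes held 94.95% to 98.7% of the summed FPKM of the 35 ligand genes in the table. *Cxcl12* alone made up 64.6% to 87.2%, and the 9 were chosen with these counts known. *Ccl9*, which is not among the 9, had 27.2 to 140 FPKM, above *Cxcl16* and *Cxcl15*.

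**Figure D4:**
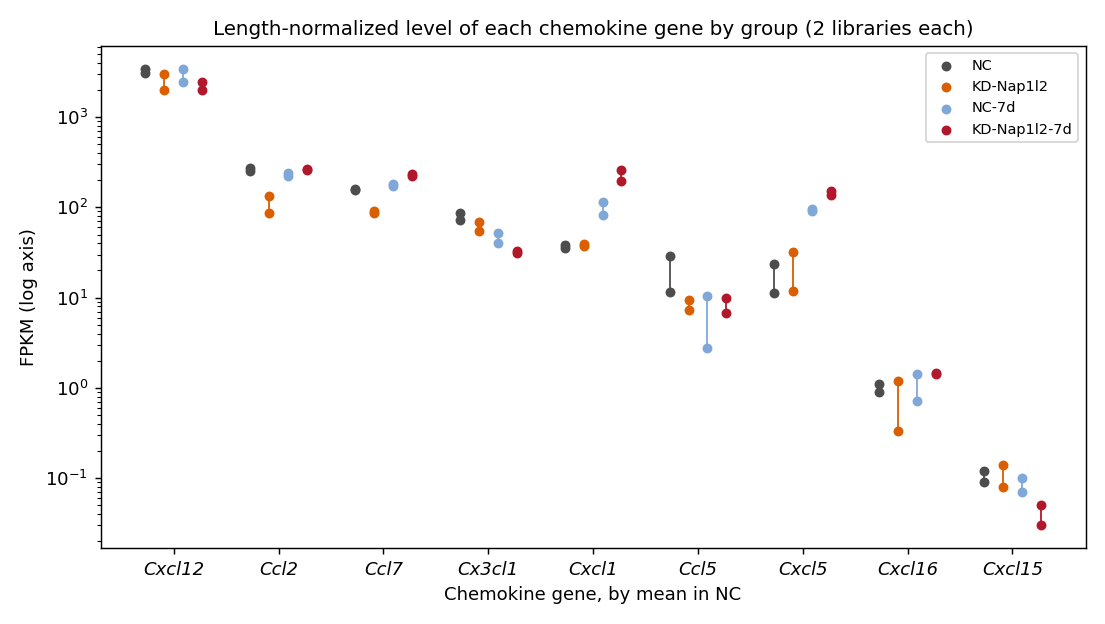
FPKM of the 9 chemokine genes on a log axis, with a point per library, a line joining the 2 libraries of a group, and genes ordered by their mean in NC. Cxcl12 lies above 2000 in every library, Cxcl15 stays under 0.15, and Cxcl1 and Cxcl5 lie above Cx3cl1 in the groups at 7 days.

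Neighbouring ligand genes were looked up only around *Ccl2*, *Cxcl1* and *Cx3cl1*, and 6 of the 9 genes lie in these 3 clusters. The surroundings of *Ccl5*, *Cxcl12* and *Cxcl16* were not searched, so whether they lie in clusters is not described here. The cluster on chromosome 11 holds 6 listed ligand genes over 144.2 kb, of which 2, *Ccl2* and *Ccl7*, whose starts are 10.1 kb apart, exceeded 50 normalized counts in a library. *Ccl11*, starting 22.3 kb from *Ccl2*, stayed at 3.1 to 8.9 normalized counts, *Ccl12* at 0 to 2.1, *Ccl8* at 2.9 to 28.2 and *Ccl1* at 0 to 1. The cluster on chromosome 5 holds 7 over 146.6 kb, and 2, *Cxcl5* and *Cxcl1*, exceeded 50. *Ppbp*, *Pf4*, *Cxcl3* and *Cxcl15* between them and *Cxcl2* beyond *Cxcl1* stayed under 10. *Cxcl2*, another Cxcr2 ligand that starts 12.7 kb from *Cxcl1*, had 0 to 5.0 normalized counts. On chromosome 8, 2 of 3 genes over 66.4 kb exceeded 50: *Cx3cl1* and *Ccl17* after it, at 12.5 to 91.6, while *Ccl22* before it stayed at 0 to 3.9.

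**Figure D5:**
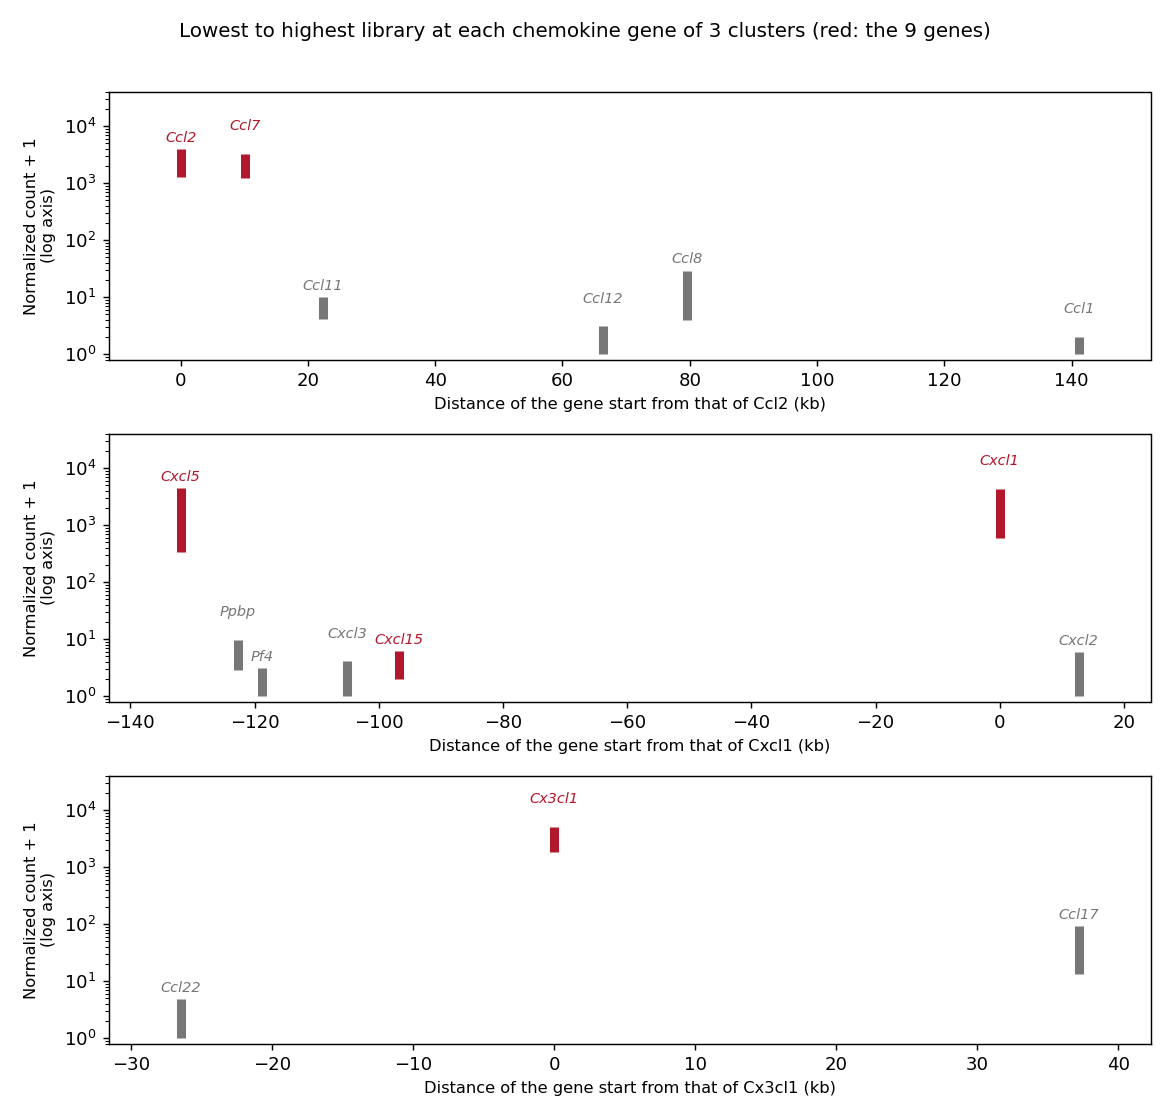
Range from the lowest to the highest of the 8 libraries, as normalized count + 1 on a log axis, for each listed chemokine gene by its distance in kb from the start of Ccl2, Cxcl1 or Cx3cl1. Ccl2, Ccl7, Cxcl5, Cxcl1 and Cx3cl1 lie above 300, and the other genes of the clusters under 100.

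Of 32 further chemokine ligand genes, 26 were in the table and 8 were tested. *Ccl9*, a myeloid attractant, had 1606 and 1493 normalized counts in NC, 2614 and 1605 in KD-Nap1l2, 6159 and 3692 in NC-7d, and 6793 and 7807 in KD-Nap1l2-7d, with all induced libraries above all uninduced ones. It was the 1 of the 8 that rose in NC-7d against NC (log2 1.67, SE 0.292, adjusted p = 0.0151 by edgeR), beside 4.83% of all genes tested called higher. It also rose in KD-Nap1l2-7d against KD-Nap1l2 (log2 1.79, SE 0.293, adjusted p = 0.00906 by edgeR). In the latter, *Ccl17*, a ligand of Ccr4 and the neighbour of *Cx3cl1*, fell by 1.90 on the log2 scale with an SE of 0.525 (adjusted p = 0.0495 by edgeR). *Ccl9* and *Ccl17* were the only ones of the 8 called there, beside 14.2% of all genes tested. *Ccl6*, *Ccl8*, *Ccl20*, *Ccl25*, *Cxcl9* and *Cxcl10* passed in no comparison by edgeR, and DESeq2 called *Ccl6* in KD-Nap1l2-7d against NC-7d. *Ccl6* (log2 1.38 and 1.68) and *Ccl20* (log2 1.31 and 1.36) were higher in the KD-Nap1l2 groups at both times without overlap. Groups without overlap were found for 43.2% of all genes tested before induction and for 42.1% at 7 days. *Cxcl9* (log2 -2.51) and *Cxcl10* (log2 -1.83), both interferon-induced, were lower in KD-Nap1l2 against NC. The median log2 fold change of the 8 was 0.94 in KD-Nap1l2-7d against KD-Nap1l2 and -0.19 in NC-7d against NC, and that of the 8 tested genes described above was 1.10 and 0.04, beside -0.01 and 0.00 over all genes tested.

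The receptors of these chemokines were mostly low. Of 23 receptor genes listed, 19 were in the table and 8 were tested. *Cxcr2*, which Cxcl1 and Cxcl5 bind, had 114 to 226 normalized counts, *Cxcr4* 1.0 to 11.8 and *Cx3cr1* 3.9 to 18.8, and *Ccr2* at 1.0 to 7.3 and *Cxcr6* at 0 to 3.1 were not tested. *Ackr3*, which takes up Cxcl12 without classical signalling, had 261 and 317 normalized counts in NC, 321 and 878 in KD-Nap1l2, 114 and 110.3 in NC-7d, and 189.5 and 189 in KD-Nap1l2-7d. It was lower after induction with either construct without overlap, and passed in KD-Nap1l2-7d against KD-Nap1l2 (log2 -1.66, SE 0.404, adjusted p = 0.0334 by edgeR) and not in NC-7d against NC (log2 -1.37, SE 0.415, adjusted p = 0.087 by edgeR). *Ccrl2*, a receptor-like protein that binds chemerin, rose in KD-Nap1l2-7d against KD-Nap1l2 (2.84-fold, SE of the log2 value 0.339, adjusted p = 0.0263 by edgeR). These were the 2 of the 8 receptor genes called in that comparison, beside 14.2% of all genes tested. In the other 3 comparisons of groups 0 were called. An unadjusted p under 0.05 by edgeR was found for 2 in KD-Nap1l2 against NC, beside 13.7% of all genes tested. It was found for 1 in KD-Nap1l2-7d against NC-7d, beside 7.85%, and for 2 in NC-7d against NC, beside 24.5%. In these 3 comparisons, in this order, DESeq2 called 0, 0 and 1 (*Ackr3*), and limma 0 in each. *Ccr10*, *Cxcr1* and *Xcr1* passed in none.

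Of 10 genes for proteins that shed, cleave or hold chemokines, all were tested. The sheddases of Cx3cl1 and Cxcl16 passed in no comparison: *Adam10* had 3978 to 5686 normalized counts and *Adam17* 1619 to 2278. *Dpp4*, a peptidase that trims Cxcl12, had 13.4 to 33.3. *Gpc1* and *Sdc1* encode heparan sulfate proteoglycans, on whose chains chemokines are held. *Gpc1* fell in NC-7d against NC (log2 -0.61, SE 0.128, adjusted p = 0.0278 by edgeR) and in KD-Nap1l2-7d against KD-Nap1l2 (log2 -1.06, SE 0.129, adjusted p = 0.00317 by edgeR), and *Sdc1* fell in the latter (log2 -0.61, SE 0.135, adjusted p = 0.0253 by edgeR). *Sdc4*, *Mmp2*, *Mmp14*, *Furin* and *Ctsk* passed in none.

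Of 28 genes of the interleukin 1, TNF, Toll-like receptor, NF-κB and C/EBP pathways that induce chemokines, 5 passed in NC-7d against NC (2 higher, 3 lower), beside 8.21% of all genes tested, and 9 in KD-Nap1l2-7d against KD-Nap1l2 (7 higher, 2 lower), beside 14.2%. In both comparisons between the constructs 0 of the 28 passed by edgeR, with 4 at an unadjusted p under 0.05 in each. Of all genes tested, 13.7% had such a p without induction and 7.85% at 7 days. DESeq2 called 1 of the 28 (*Tlr3*) without induction. *Cebpb*, a transcription factor of inflammatory genes, had 1124 and 983 normalized counts in NC, 976 and 1030.3 in KD-Nap1l2, 2910.5 and 2492 in NC-7d, and 3318 and 3500.3 in KD-Nap1l2-7d. It rose in both induction comparisons (log2 1.36 and 1.77, adjusted p = 0.00202 and 0.000591 by edgeR), with the induced libraries above the uninduced ones. *Tlr2*, a receptor for bacterial lipoproteins, fell in both (log2 -1.29 and -0.74, adjusted p = 0.00499 and 0.0224 by edgeR). *Tlr4*, the lipopolysaccharide receptor gene, rose in KD-Nap1l2-7d against KD-Nap1l2 (log2 0.65, adjusted p = 0.013 by edgeR), and *Nfkbie*, an NF-κB inhibitor gene, fell in NC-7d against NC (log2 -0.92, adjusted p = 0.00733 by edgeR). The inhibitor genes *Nfkbia* (log2 0.76, adjusted p = 0.0231 by edgeR) and *Nfkbib* (log2 0.73, adjusted p = 0.0133 by edgeR) rose in KD-Nap1l2-7d against KD-Nap1l2. In NC-7d against NC, *Nfkbia* had a log2 fold change of 0.64 (adjusted p = 0.0534 by edgeR), which DESeq2 and limma called. Whether these pathway genes had a part in the chemokine results was not tested.

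Of 12 genes of the glucocorticoid response, 5 rose and 1 fell in NC-7d against NC by edgeR, beside 8.21% of all genes tested that passed. From the same list 6 rose and 1 fell in KD-Nap1l2-7d against KD-Nap1l2, beside 14.2%. The median log2 fold change of the 12 was 2.05 and 1.74, beside 0.00 and -0.01 over all genes tested. *Fkbp5*, a chaperone gene of the glucocorticoid receptor, lay at 153 to 329 normalized counts without induction and at 6385 to 9059 after it. *Nr3c1*, the receptor gene itself, is on that list and was the gene that fell in both (log2 -1.12 and -1.15). The part of these genes in the chemokine results was not tested.

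The genes whose pattern over the 8 libraries was most like that of a chemokine gene are given as a description, from log2 CPM among 11279 candidate genes (11280 for *Cxcl16*) that averaged 50 normalized counts or more. They were *E2f4* (Pearson's r = 0.995), *Csf1* (0.983) and *Zpr1* (0.983) for *Cxcl1*, and *Osbpl11* (0.996), *Got2* (0.994) and *Lrrc59* (0.991) for *Cxcl5*. They were *Borcs8* (0.992), *Tnip1* (0.989) and *Ubb* (0.987) for *Ccl7*, and *Med29* (0.970) and *Ctnnbl1* (0.964) for *Ccl2*. For *Cx3cl1* they were *Phkg1* (0.981), *Wars2* (0.977) and *Sh3rf3* (0.977), and for *Cxcl12* *Brf1* (0.957), *Srpk2* (0.944) and *Krt10* (0.941). *Ccl5* had no gene above 0.909 (*Tent5a*), then *Hsd17b12* (0.908) and *Myl6b* (0.907), and *Cxcl16* had *Pnpt1* (0.982), *Rsl24d1* (0.956) and *Helz2* (0.953). The 8 points share their libraries and depth, and these values are among the highest of all candidate genes.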

How the data were processed

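RNA-seq libraries of C3H10T1/2 cells were analysed in 4 groups of 2, assigned by their labels. Per the labels, libraries were prepared with BGI protocols, and the submitters' processing notes list BWA, Bowtie2, RSEM and GRCm38.p6 without versions or roles. The authors deposited estimated counts per gene and transcript, not normalized. They also deposited values taken here as FPKM, a unit inferred from the values because the header does not name it. Their tables of comparisons (fold changes, p-values) were not used.

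Counts of 18605 genes were rounded (41.1% of genes had a fractional count in a library, tolerance 1e-06), scaled by TMM and filtered with filterByExpr to 13470. One edgeR 4.0.16 model held the 8 libraries (R 4.3.3, 4 residual degrees of freedom). A call is a Benjamini-Hochberg adjusted p under 0.05 in the quasi-likelihood test, and an SE is the log2 fold change divided by the root of the F statistic. Alternatives were DESeq2 1.42.0, RLE scaling, no filter, a replicate block, limma 3.58.1 on log2(FPKM + 1), only the libraries compared, each library left out, and FPKM summed over transcripts. On simulated data of 13271 genes for KD-Nap1l2-7d against KD-Nap1l2, the test found 88 of 100 genes made to change 4-fold and 56 of 100 made to change 2-fold. It made 10 false calls.

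The chemokine genes and all gene lists were chosen with earlier results of these data known. Named were the 9 genes, tested ligands, receptors and processing genes, at most 4 genes of smallest adjusted p in the other lists, and the 3 most correlated genes, of which 1 is not reported here. Genes named outside this rule (*Nr3c1*, *Tlr3*, *Nfkbia*, *Nfkbib*, untested neighbours, *Ccr2*, *Cxcr6* and marker genes) were chosen after their values were seen. Positions came from RefSeq and GENCODE vM21, and figures were drawn with matplotlib.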

Additional observations from a re-analysis of the deposited data

How the results depend on the processing

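Of 424 recomputed values for the 8 tested chemokine genes in 5 comparisons, 377 kept their direction and their side of the threshold, 8 lost a call, 14 gained one and 25 changed sign. Sign changes touched only differences that were not called. In KD-Nap1l2 against NC, the 11 genes called became 454 with DESeq2, 160 with no filter on low counts, 33 with limma, 4 with the replicate block, 0 with only the libraries compared, and 0 to 562 with a library left out; the chemokine genes called became 2 with DESeq2, 2 with no filter, 1 with limma and 0 to 2 with a library left out. Of the libraries left out there, NC replicate 2 and KD-Nap1l2 replicate 2 gave 0 calls, NC replicate 1 gave 3 and KD-Nap1l2 replicate 1 gave 562. In KD-Nap1l2-7d against NC-7d, DESeq2 called 82 genes and 1 chemokine gene, and leaving out a library gave 0 to 1 calls, the 1 without NC-7d replicate 1. In NC-7d against NC, the 1106 calls ranged from 122 (without NC replicate 1) to 926 with a library left out, with 522 without NC replicate 2 and 581 without NC-7d replicate 1, and the chemokine genes called from 0 to 2. In KD-Nap1l2-7d against KD-Nap1l2, the 1912 calls ranged from 305 (without KD-Nap1l2-7d replicate 1) to 2200, with 330 when replicate 2 of that group was left out and 1181 when KD-Nap1l2 replicate 2 was, and the chemokine genes called from 3 to 5. In the difference of the induction contrasts, DESeq2 called 100 genes and 3 chemokine genes, no filter gave 1, and leaving out a library gave 0 to 19, the 19 without NC-7d replicate 1. The cause of these shifts was not tested, beyond the fewer samples or genes each fit holds. A lone library left in a group is assumed to vary like the other groups.

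Sign changes outside the left-out libraries were those of *Cxcl12* in the difference of the induction contrasts, 0.00626 with the replicate block and 0.0173 with limma, against -0.03. With a library left out, *Cxcl12* ranged from -0.28 to 0.27 there, from -0.40 to 0.16 in NC-7d against NC and from -0.33 to 0.10 in KD-Nap1l2-7d against KD-Nap1l2. *Cxcl1* ranged from -0.0666 to 0.14, *Cxcl5* from -0.504 to 0.93 and *Cxcl16* from -1.09 to 0.0349 in KD-Nap1l2 against NC. *Ccl5* ranged from -0.35 to 1.61 and *Cxcl16* from -0.21 to 1.03 in KD-Nap1l2-7d against NC-7d, *Cxcl16* from -0.53 to 0.71 in NC-7d against NC, and *Ccl5* from -0.30 to 0.27 in KD-Nap1l2-7d against KD-Nap1l2. *Cxcl5* ranged from -0.30 to 1.14 and *Cx3cl1* from -0.35 to 0.10 in the difference of the induction contrasts.

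Libraries of the same number were not paired by the labels, and their deviations from the group means correlated between -0.0612 and 0.104 over 13470 genes. With the replicate block, 961 genes were called in NC-7d against NC and 1757 in KD-Nap1l2-7d against KD-Nap1l2, and the chemokine genes called were unchanged in number in these comparisons. With 2 libraries per group the error rests on 4 degrees of freedom shared over the groups, and the counts of *Cxcl15* and *Cxcl16* limit what could be detected in them.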
